A study of Mus musculus with 8 samples.

Results

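The axon guidance ligands and receptors are the semaphorins, plexins, neuropilins, ephrins, Eph receptors, Slits, Robos, netrins and Unc5 receptors. They were taken by gene symbol from the annotation of a mouse expression array. The rule used no measured value, but it was set with earlier results of these data known. The symbols matched 68 of 36163 gene names, carried by 88 of 55681 probes. Of the 68 genes, 35 encode ligands and 33 encode receptors. They were followed in the mouse ES cell line E14Tg2A (strain 129/Ola, a single line with no engineered allele named in the labels) at 4 stages of neuralization. These were undifferentiated ES cells in serum and LIF at 0 days in vitro (DIV), epiblast-like aggregates (ELA) after 2 DIV floating in defined minimal medium, neural progenitor cells (NPC) at 6 DIV, attached to laminin, and neural precursors (NPC/Neu) at 10 DIV, after a last culture step without B27. At each stage 1 array received total RNA, and 1 array received Ago-RNA, the RNA recovered from the cytosol with an antibody against all Argonaute (Ago) proteins. No control immunoprecipitation was analyzed here. Each array held a pool of RNA from 3 independent experiments. There were thus 8 arrays, 1 per condition, with no replicate and no test.

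Axon guidance molecules steer growing axons and migrating cells. A ligand on a cell surface or in the extracellular space attracts or repels the growth cone that carries its receptor. Slits act through Robos, ephrins through Eph receptors, most semaphorins through plexins, with neuropilins as the binding subunit for the secreted class 3 semaphorins, and netrins through Dcc and the Unc5 receptors. Argonaute proteins hold miRNAs and bind the mRNAs that the miRNAs pair with, mostly in the 3′ UTR. Ago-RNA set against total RNA therefore reports how much of an mRNA was recovered with Ago relative to its abundance.

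Values are normalized signals on the log2 scale. A difference of 1 is a 2-fold difference, and here "rose", "fell", "higher" and "lower" in a count mean a difference of at least 1. Ago enrichment (E) at a stage is the log2 Ago-RNA signal minus the log2 total RNA signal. The only noise that could be measured was that between spots of the same array. Over 399 probes printed in 10 spots each, the SD of E between spots was 0.13 to 0.15 and that of a change of total RNA was 0.13 to 0.18. These SDs leave out variation between cultures and between immunoprecipitations. A gene with no probe well above background on 1 of the compared arrays is given as a bound ("at least"), set against the lowest signal well above background on the dim array. Levels are compared between arrays, never between genes.

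All 8 arrays lay on 1 slide, and 53.4% to 61.2% of the spots of an array were well above background. The ES Ago-RNA array was brightest before normalization, with an upper quartile of 3039 against 1060 to 1774 on the others, and every ES value of E rests on it. Stage markers mostly followed the labels. One exception was the last transition, where all 6 naive pluripotency genes went up again, by a median of 0.61. Esrrb (1.96) and Zfp42 (1.06) passed 1. All 6 naive pluripotency genes fell from ES to NPC/Neu (median −3.33), Fgf5 of the primed epiblast was highest in ELA (14.78, from 11.97 in ES, and 7.48 in NPC), and all 5 neural progenitor genes and all 6 neuronal genes measured rose from ES to NPC/Neu. Of the neuronal genes, however, Nefl first fell by 1.86 from ES to ELA. Stmn2 was at 14.44 in ES, 13.85 in NPC and 15.73 in NPC/Neu. Of 19 markers of other cell types (mesoderm, endoderm, endothelium, neural crest and glia), 15 could be compared, of which 6 rose and 3 fell. The mesoderm marker T went from 7.19 in ES to 9.73 in NPC and 9.31 in NPC/Neu. Foxa2, a transcription factor of endoderm and floor plate, went from 6.76 in ES to 10.10 in NPC/Neu, and Olig2 from a level not well above background to 9.31. Their part in the results was not tested.

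Of the 68 genes, 56 were well above background on the total RNA array of ES, 58 in ELA, 62 in NPC and 63 at NPC/Neu. On all 8 arrays together 52 were, and the netrin receptor gene Unc5d was on none. By the mouse genome build mm9 that the array annotation uses, 59 of the 88 probes lay in 3′ UTRs and 13 in coding sequence. A further 2 matched both in different transcripts, 5 crossed a boundary and 9 matched no annotated transcript of their gene.

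The sequences shown first are those of miRNAs and of the letters that match them in Robo 3′ UTRs. The miR-218 genes lie within Slit genes. By RefSeq coordinates (GRCm38.p6), the mature miR-218-5p is encoded at chr5:48223966-48223986 (+) inside Slit2 and at chr11:35616840-35616860 (+) inside Slit3. Its sequence is given with the seed, bases 2 to 8, in capitals, and the miRNA sequences of the comparisons below follow it. All are from RefSeq.
miR-218-5p: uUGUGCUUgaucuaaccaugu
miR-294-3p: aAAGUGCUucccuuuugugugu
let-7a-5p: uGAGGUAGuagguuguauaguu
miR-9-5p: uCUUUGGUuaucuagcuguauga
miR-125b-5p: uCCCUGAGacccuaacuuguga
The letters that pair with the miR-218 seed, AAGCACA, were found in the 3′ UTRs of Robo1, Robo2 and Robo3. The stretches are shown with these letters in capitals, and the coordinates (mm9) are those of the capitals.
Robo1, chr16:73045593-73045599 (+): ttttttggttttaaAAGCACAa
Robo2, first match, chr16:73895604-73895610 (-): ttttatttggtgatAAGCACAa
Robo2, second match, chr16:73893278-73893284 (-): gtcacggcagacccAAGCACAg
Robo3, chr9:37223830-37223836 (-): cttgtgactcactgAAGCACAc

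Most guidance genes that changed over the whole course rose. From ES to NPC/Neu, total RNA could be compared for 65 of the 68 genes. It was higher for 34 of them (52.3%), where 15.8% of the 25628 genes compared were higher, and lower for 8 (12.3%), where 15.7% of all genes were lower. The median change was 1.29, against −0.05 over all genes. Among the ligands 16 of 34 rose and 4 fell, and among the receptors 18 of 31 rose and 4 fell. Of the 65 values 11 were bounds. Epha6, Sema3d and Unc5d were not compared, since they were not well above background on the total RNA array of either end. The member just past the limit for a rise was Sema6a (1.19) and the one just short of it Sema4b (0.9954). For a fall they were Slit3 (−1.37) and Unc5b (−0.72). In pooled cells, more cells of a type and more RNA per cell cannot be told apart.

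The changes were spread over the transitions. From ES to ELA 10 of 60 members rose (16.7%, against 4.21% of all genes) and 5 fell (8.33%, against 4.31%). From ELA to NPC 22 of 65 rose (33.8%, against 9.88%) and 13 fell (20.0%, against 9.25%). From NPC to NPC/Neu 15 of 64 rose (23.4%, against 5.45%) and 7 fell (10.9%, against 3.91%). In each of these comparisons both shares of the members were above those of all genes, except for the falls over the whole course. Highest total RNA was reached by 6 of 66 members in ES, by 17 in ELA, by 18 in NPC and by 25 in NPC/Neu. The same was not counted over all genes, so these counts cannot be called particular to the members. Some peaks were small, as for Sema4c, counted in ELA, which stayed between 16.52 and 16.78.

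**Figure D1:**
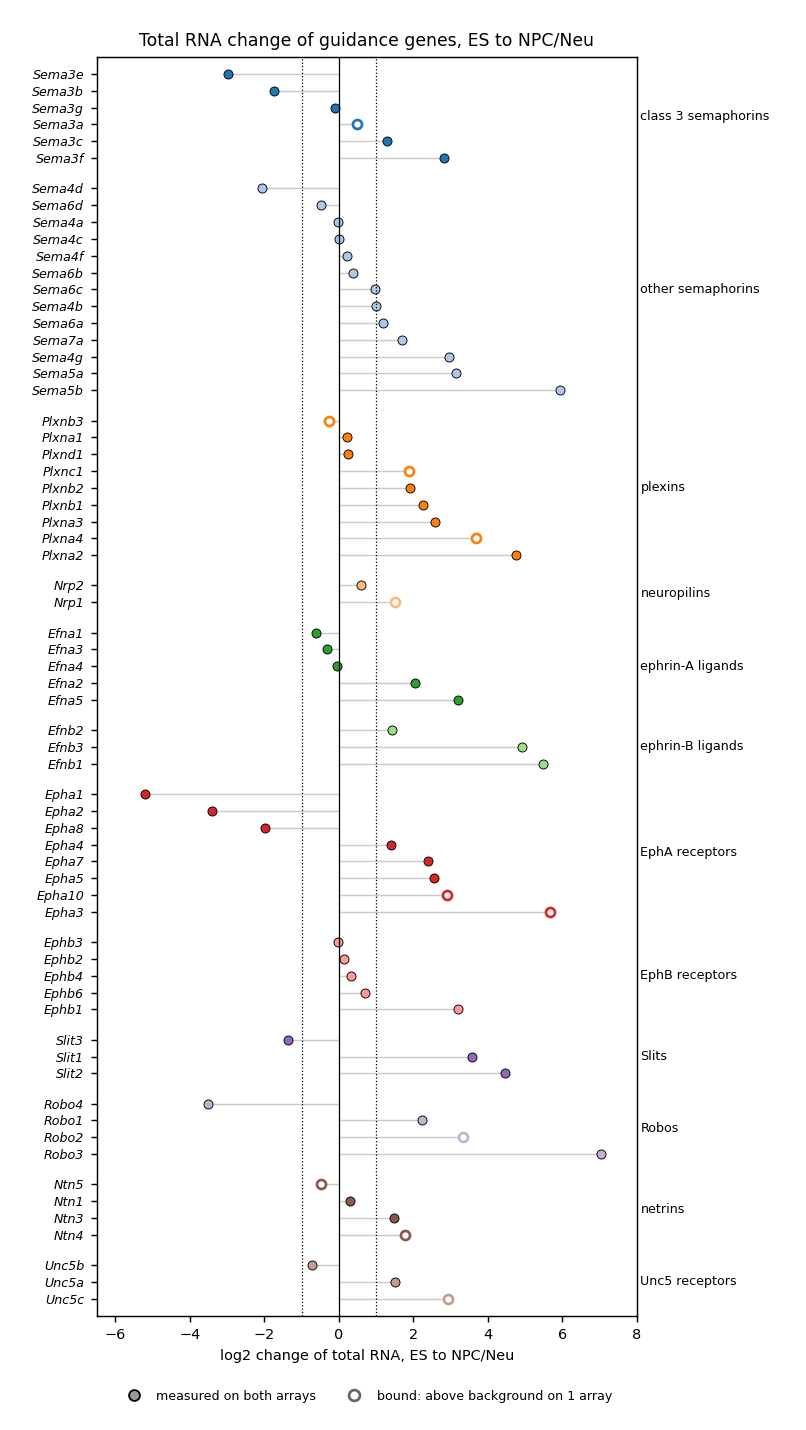
Change of total RNA from ES to NPC/Neu (x axis, log2) for the 65 members that could be compared, grouped by subfamily (y axis), 1 array per stage. Filled points were measured on both arrays, open points are bounds, and dotted lines mark a change of 1 in either direction. Robo3 lies farthest to the right (7.04) and Epha1 farthest to the left (−5.21), and the EphA receptors lie on both sides.

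The Slit ligands, secreted proteins that mostly repel axons, took 2 courses. Slit2 (chr5:48374394-48697521, mm9, + strand) had a total RNA signal of 8.04 in ES, 8.03 in ELA, 13.39 in NPC and 12.50 at NPC/Neu. Slit1 had 8.62, 9.52, 13.10 and 12.20 at the same stages. Both were low until ELA and rose in NPC, Slit2 by 5.36 and Slit1 by 3.58, and over the whole course Slit2 rose 21.9-fold (4.45) and Slit1 by 3.58. Slit3 instead had 9.77 in ES, 10.86 in ELA, 9.22 in NPC and 8.40 at NPC/Neu, highest in ELA and 2.58-fold lower in NPC/Neu than in ES. On the Ago-RNA arrays Slit2 went from 9.08 in ES to 14.36 in NPC and 14.35 in NPC/Neu, so that its Ago-RNA did not share the drop of 0.89 that total RNA had at the last transition. Slit3 on the Ago-RNA arrays was 10.00 in ES and 9.59 in NPC/Neu, a difference under 1.

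The Robo receptors of these ligands held the largest rise of any member. Robo3, which in commissural neurons delays the response to Slit until the axon has crossed the midline, had 7.81 in ES, 7.50 in ELA, 9.99 in NPC and 14.85 at NPC/Neu. It was 132-fold higher in NPC/Neu than in ES, and 4.86 of the 7.04 came in the last transition. It was read by a single probe in the coding sequence (chr9:37224357-37224416, mm9, gene on the - strand), shown because this rise rests on it.
Robo3 probe: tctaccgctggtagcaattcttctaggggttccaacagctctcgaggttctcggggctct
Robo1 had 11.49, 12.43, 11.55 and 13.73, and rose 4.74-fold over the course, by 2.18 in the last transition. Robo2 was not well above background in ES and had 7.20 in ELA, 8.61 in NPC and 10.07 at NPC/Neu, at least 10.0-fold higher than in ES, by at least 2.80 and 3.85 at its probes. These neuronal Robos were each highest in NPC/Neu, whereas Slit1 and Slit2 were highest in NPC. Robo4, the member of endothelial cells, fell from 10.58 in ES to 9.25 in ELA, was not well above background in NPC, and had 7.07 in NPC/Neu, 11.4-fold lower than in ES. Of the endothelial markers, Tek was at 9.48 in ES and not well above background in NPC and NPC/Neu, Kdr went from 10.51 in ES to 11.94 in NPC/Neu, Pecam1 was 8.90 in ES and 8.59 in NPC/Neu, and Cdh5 was not well above background on any array.

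**Figure D2:**
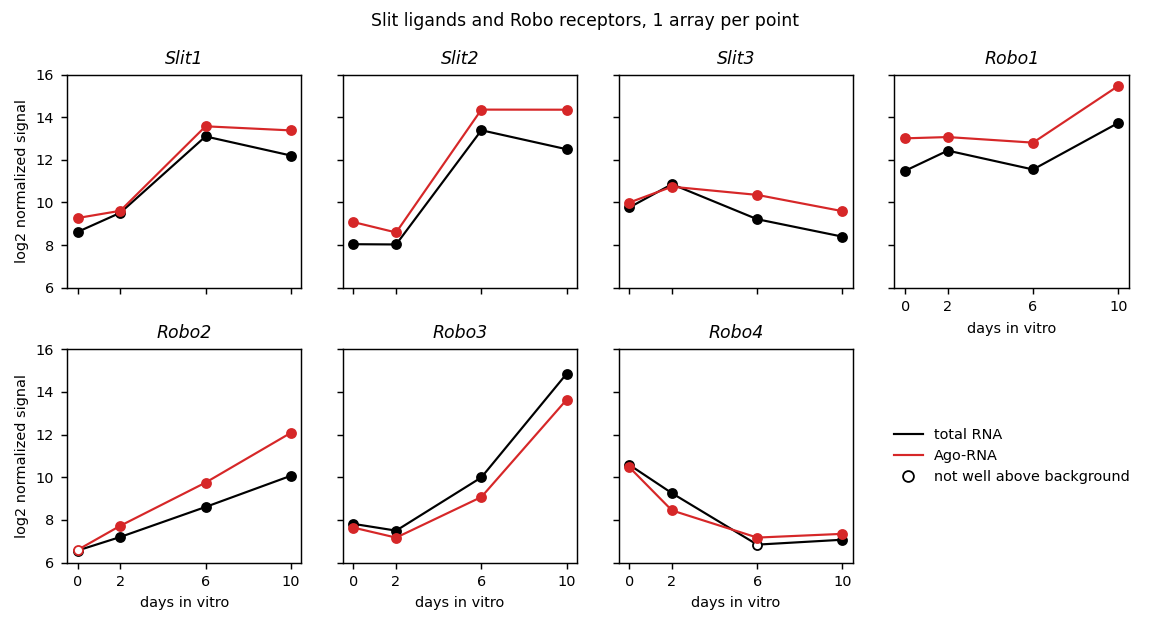
Log2 normalized signal (y axis) of the Slits and Robos against days in vitro (x axis), total RNA in black and Ago-RNA in red, 1 array per point. Open points were not well above background. Slit1 and Slit2 step up between 2 and 6 DIV, Robo1, Robo2 and Robo3 end highest at 10 DIV, and only Robo3 has its Ago-RNA below its total RNA at all 4 stages.

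The ephrin-B ligands, transmembrane proteins that bind mainly EphB receptors and signal in both directions, all rose. Efnb1 (chrX:96331469-96344330, mm9, + strand) had 9.33 in ES, 9.86 in ELA, 14.92 in NPC and 14.82 at NPC/Neu. Efnb3 (chr11:69367594-69373707, - strand) had 9.71, 10.75, 14.66 and 14.62. Efnb1 rose 44.8-fold and Efnb3 30.1-fold from ES to NPC/Neu, mostly from ELA to NPC (5.07 and 3.92), and both then differed by at most 0.11 between NPC and NPC/Neu. Efnb2 rose by 1.42, with one probe at 0.64 and the other at 2.21. Of the 5 ephrin-A ligands, which are tethered by a lipid anchor and bind mainly EphA receptors, 2 rose. Efna5 had 10.31, 10.97, 13.55 and 13.51 and rose 9.22-fold, and Efna2 rose 4.12-fold, from 9.24 to 11.28. Efna1, Efna3 and Efna4 changed by −0.62, −0.31 and −0.06.

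The EphA receptors split by stage. Epha1 (chr6:42308486-42323267, mm9, - strand) had 13.24 in ES, 14.08 in ELA, 9.65 in NPC and 8.02 at NPC/Neu, the largest fall of any member (37.1-fold). Epha2 had 13.76, 11.41, 11.01 and 10.36, and fell 10.5-fold, mostly between ES and ELA (−2.35). Epha8 had 10.80, 11.48, 10.28 and 8.81, and fell 3.97-fold. The early stages thus held Epha1, Epha2 and Epha8 at their highest, and 5 other EphA genes were higher by at least 1 in NPC/Neu, Epha5 by 1 of its probes. Epha3 (chr16:63543364-63863984, - strand) was not well above background in ES and ELA, had 9.43 in NPC and 12.42 in NPC/Neu, and was at least 51.1-fold higher there than in ES. Epha4 had 10.77, 9.23, 12.58 and 12.16, a dip in ELA followed by a rise of 3.35. Epha7 had 7.51, 8.41, 12.12 and 9.91, rising by 3.71 into NPC and falling by 2.21 after it, and over the course 2 of its 3 probes rose by 2.01 and 3.20 and the third, not well above background in ES, by at least 1.64. Epha10, whose kinase domain is thought inactive, was not well above background in ES and ELA. It reached 8.46 in NPC and 9.69 in NPC/Neu, at least 7.42-fold higher than in ES. Its only probe (chr4:124563692-124563751, mm9) lay in an annotated 3′ UTR, in the first part of the gene (chr4:124558143-124595044, + strand). The values of Epha10 may thus not stand for its longer transcripts. The change of Epha5 (2.56 as the mean of its probes) rests on 1 probe, which was not well above background in ES, was at least 4.76 higher in NPC/Neu and matched no annotated transcript of the gene. The other Epha5 probe, in the 3′ UTR, stayed between 14.68 and 15.11 on the total RNA arrays and changed by −0.18, which is the value of Epha5 when only probes well above background on both arrays are used.

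Of the EphB receptors, Ephb1 rose and the other 4 changed by less than 1 over the course. Ephb1 (chr9:101824458-102257023, mm9, - strand) had 7.46 in ES, 11.85 in ELA, 10.39 in NPC and 10.65 at NPC/Neu. Its rise of 4.39 was the largest of the members from ES to ELA, followed by that of Sema3f (2.63). Ephb3 had 16.09, 16.34, 16.06 and 16.08 and Ephb2 9.59, 9.62, 9.89 and 9.74, so that the total RNA of each spanned at most 0.30 over the 4 stages. Ephb4 rose by 1.12 from ES to ELA and was 0.34 above ES in NPC/Neu, and Ephb6 ended 0.70 above ES.

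**Figure D3:**
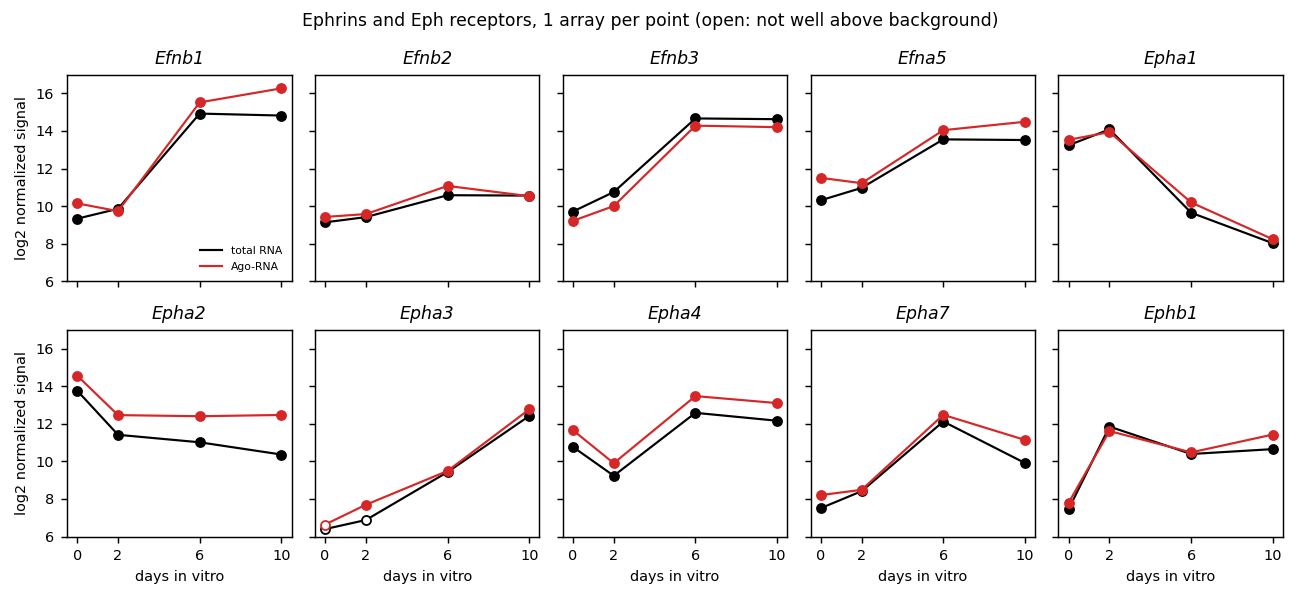
Log2 normalized signal (y axis) of ephrins and Eph receptors against days in vitro (x axis), total RNA in black and Ago-RNA in red, 1 array per point, with open points not well above background. Efnb1, Efnb3 and Efna5 step up between 2 and 6 DIV, Epha1 and Epha2 go down, Epha3 goes up to 12.42, and Ephb1 steps up by 2 DIV to 11.85.

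The semaphorins, secreted or membrane-bound ligands, did not move together. Of the 6 class 3 semaphorins compared, 2 rose and 2 fell. Sema3f, which repels axons through neuropilin-2, had 9.77 in ES, 12.40 in ELA, 13.46 in NPC and 12.61 at NPC/Neu and rose 7.13-fold. Sema3e, which binds plexin-D1 without a neuropilin, had 10.12, 9.98, 7.47 and 7.15 and fell 7.84-fold, with most of its fall (−2.51) between ELA and NPC. Sema3c was highest in NPC (10.98, from 8.05 in ES), and Sema3b fell from 10.42 in ES and 11.08 in NPC to 8.70 in NPC/Neu. Over the course Sema3c rose by 1.29 as the mean of its probes, which gave 0.80 and 1.77. Sema3g changed by −0.11, and Sema3a was at least 1.39-fold higher in NPC/Neu than in ES.

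Among the 13 other semaphorins 5 rose and 1 fell. Sema5b (chr16:35541231-35664818, mm9, + strand) had 7.16 in ES, 8.03 in ELA, 11.90 in NPC and 13.10 at NPC/Neu, a rise of 61.4-fold on which both probes were alike (5.78 and 6.10). Sema5a, the other member with thrombospondin repeats, rose stepwise over 7.83, 9.45, 10.59 and 10.96, or 8.79-fold. Sema4g rose 7.78-fold, from 8.08 to 11.04, and Sema7a, the lipid-anchored member that also signals through integrins, 3.26-fold, from 9.13 to 10.84. Sema4d, the ligand of plexin-B1, had 11.63, 12.12, 10.41 and 9.55 and fell 4.21-fold. Sema6a, which binds plexin-A2 and plexin-A4, rose 2.28-fold. Sema4c stayed between 16.52 and 16.78, and the other 6 (Sema4a, Sema4b, Sema4f, Sema6b, Sema6c and Sema6d) changed by −0.49 to 0.9954.

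The plexins, the receptors of the semaphorins, rose in 6 of 9 cases and none fell. Plxna2 (chr1:196446023-196643063, mm9, + strand) had 7.64 in ES, 8.71 in ELA, 12.40 in NPC and 12.40 at NPC/Neu and rose 27.1-fold. Plxna4, which works with neuropilin-1 in the response to class 3 semaphorins, was not well above background in ES and had 7.43, 9.57 and 10.41 afterwards, at least 12.8-fold higher in NPC/Neu. Plxna3 rose 5.95-fold (9.91 to 12.48), Plxnb1 4.76-fold (10.11 to 12.36), Plxnb2 3.77-fold (13.21 to 15.13) and Plxnc1 at least 3.70-fold. All of these but Plxna2, which was level between NPC and NPC/Neu, had their highest total RNA in NPC/Neu. The 2 probes of Plxnc1 were unlike, with rises of at least 0.75 and at least 3.02, and only the second passed 1. Plxna1 and Plxnd1 changed by 0.23 and 0.24, and Plxnb3 was well above background in total RNA in ES alone (7.08). Of the neuropilins, Nrp2 had 11.70, 9.12, 11.67 and 12.29, dropping by 2.58 in ELA and coming back by 2.55 in NPC, so that the ends of the course differed by 0.59. Nrp1 was not well above background in ES and had 8.24 in NPC/Neu, at least 2.82-fold higher.

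The netrins, are laminin-related attractants and repellents. Ntn1 had 8.29 in ES, 7.07 in ELA, 7.53 in NPC and 8.58 at NPC/Neu, so that its total RNA fell into ELA by 1.22 and regained the ES level within 0.30. Ntn3 rose 2.81-fold, Ntn4 was at least 3.42-fold higher in NPC/Neu, and Ntn5 had 7.26 in ES and was not well above background in NPC and NPC/Neu (at least 1.38-fold lower). The Unc5 receptors mediate repulsion by netrin. Unc5c was not well above background in ES and ELA, had 11.42 in NPC and 9.66 in NPC/Neu, and was at least 7.57-fold higher in NPC/Neu than in ES. Unc5a rose by 2.48 from ES to ELA and was 2.83-fold higher in NPC/Neu than in ES, and Unc5b fell by 2.58 from ELA to NPC and was 0.72 below ES at the end.

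Other genes of the same pathways also rose more often than they fell. Of 57 genes on a list of further receptors, co-receptors and effectors, 31 rose from ES to NPC/Neu and 3 fell, beside the 15.8% and 15.7% of all genes. The netrin receptor gene Dcc had 9.89, 9.52, 10.74 and 12.06 (2.18 higher at the end), and Neo1, its relative, 10.38, 10.90, 12.17 and 13.09 (2.72 higher). The largest rises were those of Dpysl4, a collapsin response mediator that acts downstream of semaphorins (6.27), Nrcam, an adhesion co-receptor (5.13), and Pak3, a kinase downstream of Rac and Cdc42 (4.33). The 3 falls were those of Rnd1 (−1.77), a GTPase that binds plexins, Enah (−1.42), an actin regulator, and Srgap2 (−1.003), a Slit-Robo GTPase activating protein.

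Ago-RNA moved much as total RNA did. From ES to NPC/Neu 37 of 65 members were higher in Ago-RNA (15.7% of all genes) and 6 lower (16.2%). Of the 34 members that rose in total RNA, 33 rose in Ago-RNA too, and the exception was Epha10. All 8 that fell had lower Ago-RNA, of which 6 passed the limit, and Sema3b and Slit3 did not. The same overlap was not counted over all genes, so it cannot be called particular to the members.

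**Figure D4:**
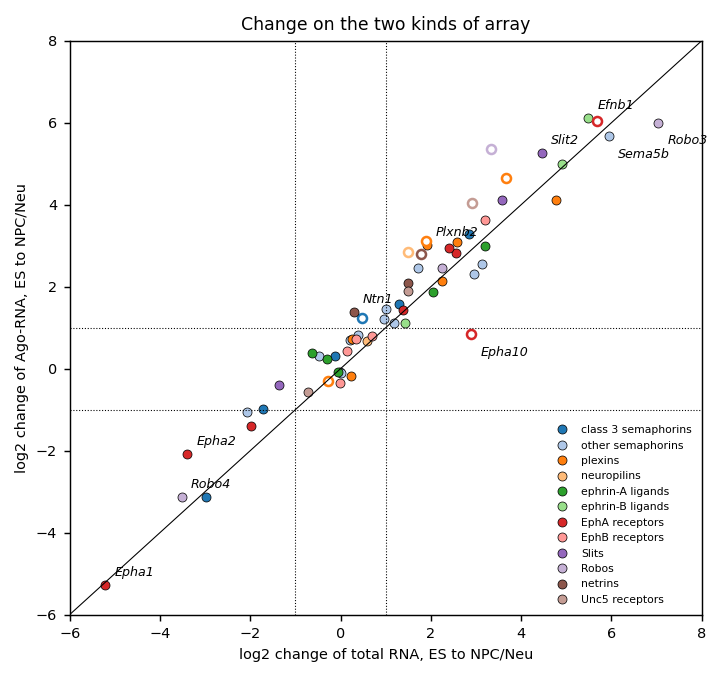
Change from ES to NPC/Neu in total RNA (x axis, log2) and in Ago-RNA (y axis, log2) for each member, coloured by subfamily, 1 array per condition. The solid line marks equal change, dotted lines a change of 1, and open points hold a bound. Most rising members lie above the line, while Robo3 (7.04 in total RNA) and Epha10 lie below it.

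Guidance mRNAs were recovered with Ago slightly more than the typical gene at every stage, and most in NPC/Neu. The median E of the members was 0.37 in ES (59 compared), 0.11 in ELA (60), 0.49 in NPC (64) and 0.78 at NPC/Neu (65), against 0.04, −0.03, 0.00 and 0.03 over all genes. Over coding genes alone it was 0.17, 0.01, 0.10 and 0.21. Over the pathway list described above it was 0.73, 0.25, 0.30 and 0.74, higher than in the members in ES and ELA and lower in NPC and NPC/Neu. Of that list, 11 of 57 genes in ES, 3 of 56 in ELA, 6 of 57 in NPC and 19 of 56 in NPC/Neu had an E of at least 1. E was at least 1 for 8 members in ES (13.6%, against 9.49% of all genes), 6 in ELA (10.0%, against 3.73%), 11 in NPC (17.2%, against 5.2%) and 25 at NPC/Neu (38.5%, against 10.9%). Of coding genes, 13.1%, 4.52%, 7.19% and 15.0% had an E of at least 1 at the 4 stages, so that the members' share in ES was near that of coding genes. It was −1 or lower for 0 members in ES (10.6% of all genes), 0 in ELA (2.88%), 0 in NPC (5.64%) and 3 at NPC/Neu (11.5%). The zero of E depends on the scaling. With arrays scaled to their 75th percentile the median E of all genes was −0.29, −0.17, −0.16 and −0.20 at the 4 stages, and the members' median lay 0.59, 0.24, 0.67 and 1.08 above it, compared with 0.34, 0.13, 0.49 and 0.75 above it as reported.

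The dip in ELA and the maximum in NPC/Neu were seen within members. Of the 52 measured on both arrays of all 4 stages, 40 had a lower E in ELA than in ES (76.9%, against 51.3% of 18517 genes measured so), and 41 had a higher E in NPC/Neu than in ELA (78.8%, against 51.7%). The highest E fell in NPC/Neu for 26 (50.0%, against 27.3% of all genes), in NPC for 13, in ES for 10 and in ELA for 3. For the stages before NPC/Neu the share of all genes was not counted. The dip in ELA was not particular to the members. Coding genes at or above the members' median transcript length had a median E of 0.78, 0.31, 0.46 and 0.76 at the 4 stages. Members that long had 0.72, 0.19, 0.54 and 1.10. The median E of the pathway list was lowest in ELA too. E was above 0 at all 4 stages for 29 of the 52 (55.8%, against 27.5%) and below 0 at all 4 for 3, namely Robo3, Efnb3 and Ephb6. The signs depend on the zero of E. The 29 became 22 with scaling to the 75th percentile and 40 with quantile normalization within each kind of RNA, where Efnb3 was at 0.03 in NPC and 0.0034 in NPC/Neu.

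**Figure D5:**
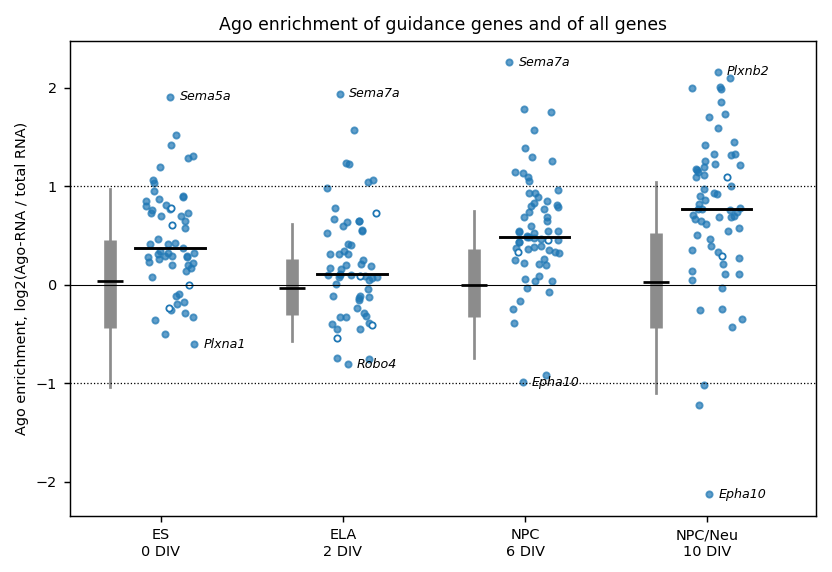
Ago enrichment (y axis, log2 Ago-RNA minus log2 total RNA) at each stage (x axis), 1 array pair per stage. Blue points are members, open points bounds, and black bars the members' medians (0.37, 0.11, 0.49 and 0.78). Gray boxes hold the middle of all genes from the 25th to the 75th percentile, with lines from the 10th to the 90th and the median in black.

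The members at the top differed by stage. In ES they were Sema5a (1.91), Robo1 (1.52) and Sema3e (1.42), and in ELA Sema7a (1.94), Sema5a (1.58) and Sema3e (1.24). In NPC they were Sema7a (2.26), Sema4b (1.79) and Efna3 (1.76), and in NPC/Neu Plxnb2 (2.17), Epha2 (2.10) and Robo2 (2.01). Sema7a kept a high E throughout, with 0.96, 1.94, 2.26 and 1.71. Epha2, whose total RNA fell, had an E of 0.80, 1.05, 1.39 and 2.10, higher at each stage than at the one before, since its Ago-RNA signal stayed at 12.46, 12.40 and 12.47 from ELA on while its total RNA went from 11.41 to 10.36. Plxnb2 had 1.07, 0.59, 0.79 and 2.17, and Robo2 0.53, 1.14 and 2.01 from ELA on. Robo1 had 1.52, 0.64, 1.26 and 1.73.

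The lowest E were those of Plxna1 (−0.60), Efnb3 (−0.49) and Ephb6 (−0.35) in ES, and of Robo4 (−0.81), Ephb6 (−0.75) and Efnb3 (−0.75) in ELA. In NPC they were those of Epha10 (−0.99), Robo3 (−0.92) and Efnb3 (−0.38), and in NPC/Neu those of Epha10 (−2.12), Robo3 (−1.22) and Plxna1 (−1.01). Robo3 had −0.17, −0.33, −0.92 and −1.22, so that its E was lowest at the stage where its total RNA was highest (with scaling to the 75th percentile it was lowest in NPC, at −1.23). Within the Robo family E in NPC/Neu thus ran from −1.22 (Robo3) to 2.01 (Robo2). The ephrin-B ligands, too, had unlike E in NPC/Neu (1.45 for Efnb1, −0.03 for Efnb2 and −0.42 for Efnb3). The letters that pair with the miR-218 seed occur 2 times in the 3′ UTR of Robo2 and 1 time in that of Robo3. The part of these matches in E was not tested.

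E moves with transcript length on these arrays, and guidance transcripts are long. The median of the longest annotated transcript was 4731 bases for the members and 2541 bases for 20051 coding genes on the array, and that of the longest 3′ UTR was 1618 and 927 bases. In NPC/Neu E was at least 1 for 15.0% of coding genes, for 36.0% of those at or above the members' median length and for 9.72% of those below it. Of the members it was at least 1 for 18 of 33 at or above their median length (54.5%) and for 7 of 32 below it (21.9%). In ES the shares were 37.3% of long coding genes and 7.51% of the others, and 7 of 28 long members and 1 of 31 others. In NPC they were 16.2% and 4.98% of coding genes, and 4 of 31 long members (12.9%) and 7 of 33 others (21.2%). In ELA they were 8.25% and 3.62% of coding genes, and 2 of 30 long members (6.67%) and 4 of 30 others (13.3%). Long members thus had a higher share than long coding genes in NPC/Neu and a lower one in ES. In ELA and NPC their shares rest on 2 and 4 members, too few to read a difference from long coding genes. The median E in NPC was 0.54 for long members and 0.46 for long coding genes. The part of length in the E of the members was not tested further.

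The letters that pair with miRNA seeds were counted in the longest annotated 3′ UTR of each gene, on the transcript strand only, for miRNAs known from ES cells (miR-294) and from neural tissue (let-7a, miR-9, miR-125b), and for miR-218. AAGCACA (miR-218) was in 19 of 68 members (27.9%) and in 13.4% of 18143 genes, with 0.16 and 0.11 matches per kb. For AGCACTT (miR-294) the shares were 14.7% and 14.3%, for CTACCTC (let-7a) 17.6% and 9.30%, for ACCAAAG (miR-9) 14.7% and 12.2%, and for CTCAGGG (miR-125b) 17.6% and 13.4%. Per kb, AGCACTT was less frequent in members (0.08) than in all genes (0.12), and the other 3 differed by at most 0.02. The letters for miR-218 and miR-294 share AGCAC but differ in the next base, so the same AGCAC cannot count for both. Further members with a miR-218 match include Efnb1, Epha7, Plxna4, Plxnc1 and Sema5a.

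In NPC/Neu the median E was 1.00 for the 19 members with a miR-218 match and 0.77 for the 46 without, and the 19 ran from −1.22 to 2.01. For miR-294 matches it was 1.09 (9 members) and 0.77, for let-7a 0.78 (12) and 0.77, for miR-9 0.76 (10) and 0.78, and for miR-125b 0.72 (12) and 0.86. In ES the median E was 0.70 for the 7 members compared that have a miR-294 match and 0.33 for the 52 without, 0.60 and 0.33 for miR-218, 0.52 and 0.31 for let-7a, and 0.41 and 0.36 for miR-9 and for miR-125b. It was thus higher with a match for all 5 miRNAs in ES, but not at the other stages. With a miR-125b match it was 0.07 in ELA (0.16 without) and 0.38 in NPC (0.53 without). With a miR-9 match it was 0.43 in NPC (0.53 without). The other medians in ELA and NPC were higher with a match. A match is a run of letters, not a shown binding site, longer 3′ UTRs hold more matches, and miRNA levels were not measured on these arrays.

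Changes of E between stages were mostly small. From ES to ELA the median change of the 53 members measured on all 4 arrays was −0.40 (−0.01 over all genes). E rose by at least 1 for 1 of them (1.89%, against 8.28% of all genes), Sema4b (0.20 to 1.22), and fell for 2 (3.77%, against 6.56%), Plxnb1 (0.88 to −0.32) and Plxna3 (0.70 to −0.38). From ELA to NPC it rose for 2 of 55 (3.64%, against 1.59%), Slit3 (−0.12 to 1.14) and Efna1 (0.10 to 1.30), and fell for 0 (3.12% of all genes). From NPC to NPC/Neu it rose for 4 of 61 (6.56%, against 2.01%), namely Ntn1 (0.54 to 1.99), Plxnb2 (0.79 to 2.17), Sema3c (0.04 to 1.15) and Sema3b (−0.17 to 0.92), and fell for 3 (4.92%, against 4.01%), namely Efna3 (1.76 to 0.62), Sema4b (1.79 to 0.65) and Epha10 (−0.99 to −2.12). Genes named here and above for 5 or fewer calls were chosen after their values were seen.

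The criteria that the study's methods set for release from Ago (an E of at least 2 at a stage, at most 0.5 at the next and a difference of at least 1.5, with an Ago-RNA signal above 7.82) or, reversed, for loading were met by 0 of the 88 member probes at any transition, and by 0.418% of all 55681 probes. By gene mean, members reached an E of 2 in NPC (Sema7a) or in NPC/Neu (Plxnb2, Epha2, Robo2 and Plxnc1), and their E at the neighbouring stages lay above 0.5 in each case, for example 1.71 for Sema7a in NPC/Neu and 0.79 for Plxnb2 in NPC. By probe, 1 probe of Efna3 (2.13 in NPC) and 1 of Ntn1 (2.15 in NPC/Neu) also did. The methods relax the limit at the other stage to 1.2 for later analyses. With it 2 member probes met the loading criteria from NPC to NPC/Neu, and 0.659% of all probes met those for release or loading at any transition. The 2 were probes of Ntn1 (0.60 to 2.15, with total RNA not well above background in NPC) and Plxnc1 (0.99 to 2.56). This Ntn1 probe matched no annotated transcript of the gene.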

How the data were processed

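The arrays were one-color Agilent SurePrint G3 Mouse arrays, annotated on mm9. The authors deposited spot intensity from the scanner software (Feature Extraction 10.7.3.1 per the file headers, 9.1 per the submitters' processing notes), namely mean, local background and processed intensity, not normalized between arrays. Per the labels 50 ng of RNA was labeled. The number of arrays limits the precision.

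Background was subtracted by normexp in limma 3.58.1 (offset 50, R 4.3.3), from mean and local background intensity. Control and irregular spots (125 to 523 per array) were dropped, quantile normalization was run on log2 values of all 8 arrays, and repeated probes were averaged. A gene is the mean of its probes that were well above background on at least 1 array, with differences taken per probe. Quantile normalization removes any difference in overall RNA recovery, and the offset understates changes of dim genes. The Ago threshold was fitted with mclust 6.1.1. Probes and 3′ UTRs of at least 50 bases were read from GENCODE vM1, of the array's build. Python 3.11.15, pandas 2.3.3, numpy 2.4.6 and matplotlib 3.10.9 were used, and the code was checked on simulated data.

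The members and lists were chosen with earlier results of these data known. Genes named are, per subfamily, the largest rise and fall, every change of at least 2.5 at a transition, the 3 highest and lowest E per stage, and, of the pathway list, the 3 largest rises and falls, Dcc and Neo1. Others are named beside their subfamily.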

Additional observations from a re-analysis of the deposited data

How the results depend on the processing

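Each of the 20 counts and medians was recomputed under 6 alternatives, and 98 of 120 values stayed within 1.5 times the reported count or within the spot SD of the reported median. No median of E changed sign, and of the changes and E values of at least 1 in size of single members measured on both arrays, 1 changed sign, that of Epha5 over the whole course (−0.18 with only probes above background on both arrays). The counts over the whole course and at the 2 later transitions were all among the 98, and so was every value with all probes of a gene or with probes above background on both arrays. Within that tolerance, the 34 members that rose over the whole course became 25 with only probes above background on both arrays. The 25 members with an E of at least 1 in NPC/Neu became 37 with quantile normalization within each kind of RNA. From ES to ELA 18 members rose with the processed signal quantile normalized and 16 with it scaled to the 75th percentile, instead of 10. With the processed signal quantile normalized, the median E was 0.52 in ES, 0.65 in NPC and 0.92 in NPC/Neu, E was at least 1 for 15 members in ES and 12 in ELA, and −1 or lower for 3 in ELA and 2 in NPC. With scaling to the 75th percentile, E was −1 or lower for 1 member in ES, 4 in ELA and 2 in NPC. With quantile normalization within each kind of RNA, the median E was 0.66, 0.35, 0.78 and 1.13 from ES to NPC/Neu, E was at least 1 for 17 members in ES, 10 in ELA and 21 in NPC, and −1 or lower for 1 in NPC and 1 in NPC/Neu. With an offset of 16, E was −1 or lower for 1 member in NPC. With the limit of 1.2 for release or loading, an alternative chosen after seeing the data, 2 member probes were called instead of 0. The causes were not tested. No paired analysis was possible because each group holds 1 array. Signal over background limits the genes given as bounds, 11 of 65 over the whole course.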
